A study of Arabidopsis thaliana with 8 samples.

Results

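Input chromatin, the sonicated chromatin set aside before immunoprecipitation, was sequenced from 2 Arabidopsis thaliana plant lines, and the 4 input libraries analysed here are 4 of the 8 libraries of a ChIP-seq study of the protein MBD7. The members are defined by their sample titles. WT input is 2 libraries from plants labelled WT that carry a 35S-SUC2 transgene. MBD7 input is 2 libraries from the transgenic line MBD7-5, labelled proMBD7::gMBD7:4xMYC. All plants were seedlings of 14 days grown at 23 °C with 16 h of light, fixed in formaldehyde. The MBD7-5 construct holds genomic MBD7 behind its own promoter with Myc tags, and it is 1 line. The labels do not say whether MBD7-5 also carries 35S-SUC2, whether its own MBD7 gene is intact, or whether the replicates were grown apart. A p-value here therefore covers only how much these libraries vary, which can be technical.

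Input chromatin is usually sequenced as a control, because its read depth follows how many copies of a stretch a nucleus holds, together with shearing, fixation and how reads are placed on the reference. A construct copied from the plant's own genome therefore adds depth over the stretch it was copied from. Arabidopsis chromosomes carry gene-rich arms, pericentromeres rich in transposons, centromeres of short satellite repeats, arrays of ribosomal RNA genes at the tips of chromosomes 2 and 4, and, beside the centromere of chromosome 2, a large piece of mitochondrial DNA. MBD7 belongs to the methyl-CpG-binding domain family and is known to bind densely methylated DNA.

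Reads were counted over chromosomes 1 to 5 of TAIR10 in sliding windows, 1000 bp wide and 500 bp apart. The 4 libraries held 19224696 to 31459707 counts, and the log2 cpm of replicate libraries had r = 0.966 for WT and 0.959 for MBD7, over windows that overlap and share neighbours. Depth is given below as relative depth, the count divided by the median count of a chromosome-arm window of the same library, which was 59 and 50 in WT input against 63 and 44 in MBD7 input. A value of 1 is thus the typical arm window. Pericentromeres were bounded at 11 and 18 Mb (chromosome 1), 1 and 7 Mb (chromosomes 2 and 4), 10 and 17 Mb (chromosome 3) and 9 and 16 Mb (chromosome 5). Log2 differences are MBD7 input minus WT input from a fit of these 4 libraries (edgeR's quasi-likelihood test, TMM scaling), and a feature was called at a Benjamini-Hochberg adjusted p under 0.05 over all features tested. Of 37899 genes 1128 were called (2.98%), 317 higher (0.836%) and 811 lower (2.14%). Of 233229 windows 2215 were called (0.95%), 663 higher (0.284%) and 1552 lower (0.665%), but only 46 windows (0.0197%) and 4 genes (0.0106%) in a fit that also held the 4 ChIP libraries.

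Depth in MBD7 input was raised at MBD7 itself, the gene that the construct holds. The mean relative depth over the windows of MBD7 (AT5G59800) was 0.993 and 1.04 in WT input against 7.66 and 7.66 in MBD7 input, or 1.01 ± 0.0314 against 7.66 ± 0.00496 (SD, n = 2). The lines did not overlap, and the libraries of the transgenic line nearly coincided. The log2 difference was 2.95 ± 0.084 (SE; edgeR's quasi-likelihood test, Benjamini-Hochberg adjusted p = 1.82e-33). SBT5.4 (AT5G59810), a neighbouring gene for a subtilisin-like protease, had relative depths of 1.07 and 0.978 in WT input and of 5.46 and 5.84 in MBD7 input, a log2 difference of 2.50 ± 0.082 (edgeR, Benjamini-Hochberg adjusted p = 1.18e-30). AT5G59790, the gene on the other side, had depths of 0.772, 0.957, 0.939 and 0.964 in the same order of libraries, and its log2 difference, 0.18 ± 0.11, did not pass the test (edgeR, Benjamini-Hochberg adjusted p = 0.523).

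The raised stretch had sharp ends. The window from 24093501 on chromosome 5 had a depth in MBD7 input 1.07 times that in WT input, and the next windows, from 24094001 onward, had ratios of 3.21, 6.40, 7.42, 9.05, 12.1, 10.1, 8.50, 6.99 and 4.28. The window from 24098501 was back at a ratio of 0.925. SBT5.4 was raised over its windows up to 24099000 only, and its further windows, up to 24101500, had ratios of 0.889 to 1.18. The 7 inner windows, those with a ratio over 6, had median relative depths of 1.25 and 1.24 in WT input against 11.2 and 11.6 in MBD7 input, that is 1.25 ± 0.0101 against 11.4 ± 0.267 (SD, n = 2). Their median ratio was 8.50, which the choice by ratio raises, and it was 7.42 over all 9 raised windows. In the inner windows the transgenic line thus held 7.50 times the WT depth on top of a depth equal to that of WT. Over all windows of each gene, unraised ones included, the ratio was 7.55 for MBD7 and 5.52 for SBT5.4. Whether the raised depth comes from copies of the construct, and whether such copies are complete, was not tested. Depth does not tell where in the genome they would lie. The highest ratio, 12.1, fell in the window from 24096001, where WT input was at 0.712 and 0.740 and MBD7 input at 8.60 and 9.02. The highest depth, 15.6 and 16.7 in MBD7 input, lay over SBT5.4 in the window from 24097001, where WT input was at 1.76 and 2.04. The profile of WT depth along the locus was thus uneven, and the ratio of the lines varied by window.

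SUC2 (AT1G22710), which encodes the phloem sucrose transporter and gives its name to the transgene of the WT plants, had a raised depth in both lines. Its mean relative depth was 2.59 and 3.23 in WT input against 3.02 and 2.82 in MBD7 input. The lines overlapped, and the log2 difference was 0.05 ± 0.082 (SE; edgeR, Benjamini-Hochberg adjusted p = 0.859). Of 23599 protein-coding genes of the arms, 154 (0.653%) had a mean depth over the 4 libraries as high as that of SUC2 or higher. The raised windows were the 5 from 8031001 to 8034000 of chromosome 1, with median depths of 3.02 and 3.88 in WT input against 3.73 and 3.23 in MBD7 input, or 3.45 ± 0.610 and 3.48 ± 0.356 (SD, n = 2). Only 0.907% of the 138929 arm windows over protein-coding genes had a mean depth over 3. The window from 8032001 was the deepest of the locus, at 4.56, 5.60, 4.78 and 4.98, and the window from 8033501, just beyond the gene, was at 0.220, 0.140, 0.238 and 0.205. On the other side AT1G22700 had depths of 1.03, 1.14, 1.11 and 1.13. The step at SUC2 was therefore present in all 4 libraries, at the same place. The labels give 35S-SUC2 for WT plants alone, and whether this depth comes from copies of that transgene was not tested.

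**Figure D1:**
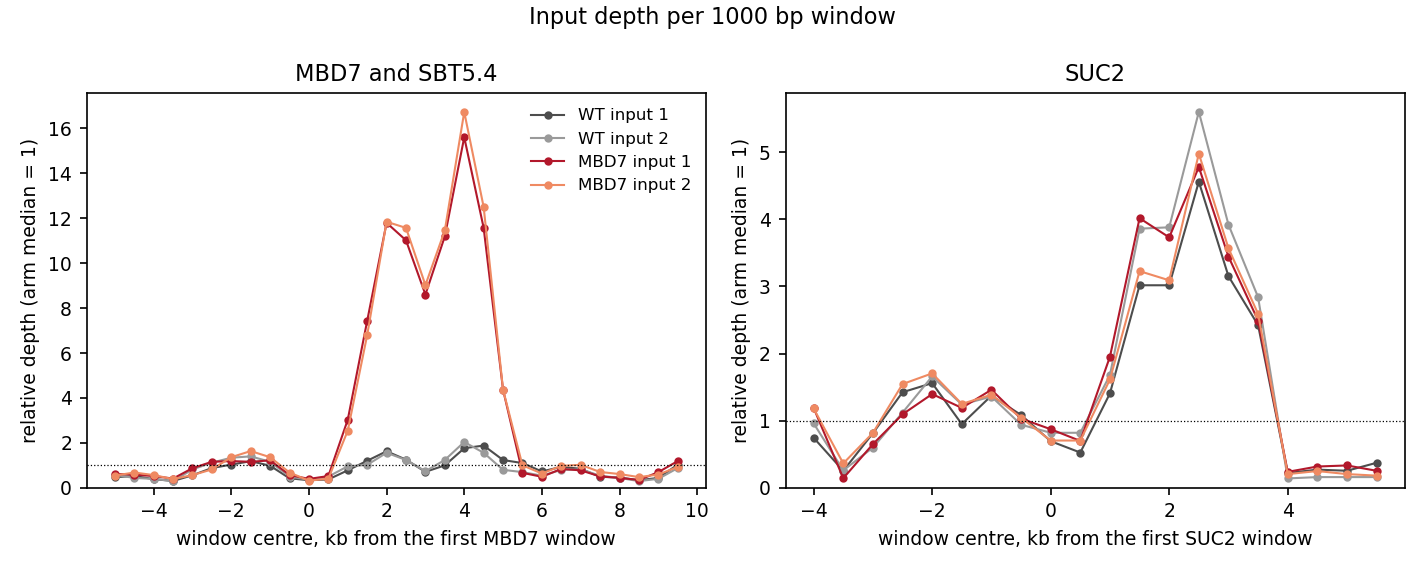
Relative depth (vertical axis, arm median = 1, dotted line) of 1000 bp windows around MBD7 and SBT5.4 (left) and SUC2 (right), against the distance of the window centre from the first window of the gene in kb, with 1 line per input library. MBD7 input reaches 15.6 and 16.7 where WT input is at 1.76 and 2.04, whereas all 4 libraries rise together over SUC2, to between 4.56 and 5.60.

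Other sucrose transporter genes, listed after the data were seen, served to place that depth. SUC1, SUT2, SUT4 and SUC5 had depths between 0.709 and 1.31 in every library. SUC6, SUC7, SUC8 and SUC9, a group of closely related genes and pseudogenes that can share reads, had higher depths, with SUC8 the highest of them at 2.79, 2.73, 2.62 and 2.20. None of these 8 genes was called between the lines (2.98% of all genes were), and their log2 differences ran from -0.15 to 0.13.

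Genes whose promoters or terminators are often built into plant vectors were examined for added depth over the windows touching them. None of the 8 was called, SUC2 included (2.98% of all genes were, so 0 of 8 is near that background), and their median log2 difference was 0.04, against 0.00 over all genes. LTI78, the cold- and drought-induced gene also known as RD29A, had depths of 1.61, 1.65, 1.45 and 1.62. UBQ10, a polyubiquitin gene, had 2.75, 2.61, 2.44 and 3.11, and its repeat units resemble those of other polyubiquitin genes. RBCS1A, for the small subunit of Rubisco, had the lowest value of the list, -0.35 ± 0.14 (edgeR, Benjamini-Hochberg adjusted p = 0.206), and HSP18.2, a heat shock protein gene, the highest, 0.24 ± 0.14 (edgeR, Benjamini-Hochberg adjusted p = 0.447). The windows of a gene reach less than 1000 bp beyond its ends, so promoter or terminator sequence further out was not covered. Gene-wide sums can also hide a raised promoter fragment shorter than a window.

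Single-copy genes gave the level that 1 copy has in these libraries. The 12 reference genes, among them the floral regulators LFY, AG and AP3, the flowering repressor FLC, ADH1 for alcohol dehydrogenase and MET1 for the maintenance DNA methyltransferase, had relative depths between 0.569 and 1.64. Their medians were 1.08 and 1.14 in WT input against 1.05 and 1.05 in MBD7 input. None was called (2.98% of all genes were), and log2 differences ran from -0.24 (TT4, chalcone synthase) to 0.12 (ADH1). Depth at 1 copy thus varied by gene, so the depth of a single window cannot be read as a number of copies.

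Mitochondria-like DNA had a higher depth in MBD7 input. Windows at over 3 times the arm median, joined across gaps of up to 5 kb, formed a block of 272 kb on chromosome 2, from 3238501 to 3510500, which holds the nuclear insertion of mitochondrial DNA. Its median relative depth over 543 windows was 9.44 and 10.6 in WT input against 13.0 and 14.5 in MBD7 input, with means of 10 ± 0.791 and 13.8 ± 1.05 (SD, n = 2). Both MBD7 libraries were above both WT libraries, and the ratio of the means was 1.38. The 10 kb before the block had medians of 0.814, 0.720, 0.508 and 0.591, and the stretch after it 0.551, 0.470, 0.349 and 0.409, so the lines stood in the opposite order just outside. Within the block 459 of 543 windows were called higher (0.284% of all windows were) and 0 lower. The median log2 difference was 0.52 (0.00 over all windows), and 542 windows were above 0. At a fold threshold of 1.5 none of the block's windows was called, and 3 were with all 8 libraries in the fit. Without WT input replicate 1, 71 were called, and without MBD7 input replicate 2, 201.

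**Figure D2:**
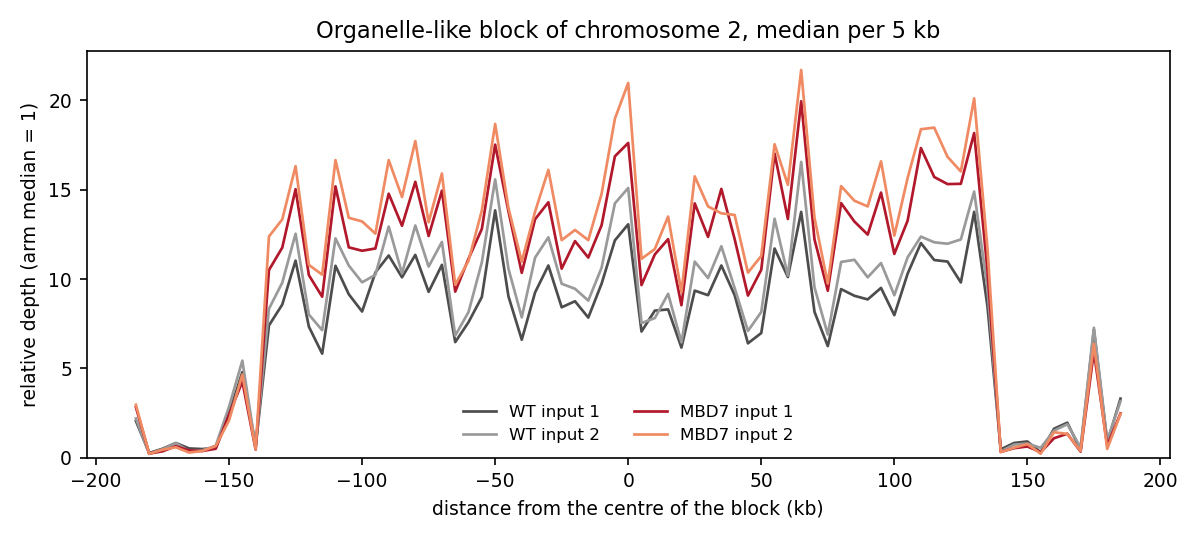
Median relative depth per 5 kb (arm median = 1) against the distance from the centre of the block of chromosome 2 in kb, with 1 line per input library. The block stands as a plateau over its whole length, with block medians of 13.0 and 14.5 in MBD7 input above 9.44 and 10.6 in WT input, and ends at the same places in all libraries.

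Genes of the respiratory chain inside the block differed in the same direction. AT2G07687, a nuclear copy of the gene for subunit III of cytochrome c oxidase, had depths of 6.75, 7.52, 9.91 and 9.82 and a log2 difference of 0.51 ± 0.076 (edgeR, Benjamini-Hochberg adjusted p = 6.95e-06). AT2G07727, a copy of the gene for cytochrome b, had 6.73, 6.95, 9.79 and 10.1 and a log2 difference of 0.58 ± 0.080. AT2G07698, for the alpha subunit of ATP synthase, had 8.26, 9.31, 11.7 and 12.5, and AT2G07741, for a membrane subunit of the same enzyme, 10.7, 11.8, 13.9 and 15.6. ABCI4 and ABCI5, named as ABC transporter genes, had 10.03, 11.1, 13.6 and 15.2, and 10.3, 10.6, 13.2 and 14.9. Both MBD7 libraries stood above both WT libraries in each of them. All 125 listed genes inside the block were called higher (0.836% of all genes were), with log2 differences of 0.31 to 0.73. The other 19 genes of the same range of identifiers lie outside the block: 9 were called lower and 0 higher, among them the helicase gene MCM5 at 0.945, 0.873, 0.684 and 0.736. Windows from AT2G07667 to AT2G07835 made up 0.528% and 0.632% of WT input and 0.927% and 1.00% of MBD7 input, and the whole block held 1.02%, 1.22%, 1.75% and 1.89%. The smallest p that an exact permutation test of 2 against 2 libraries can give is 0.333, so these shares are given as values. Reads of the nuclear insertion and reads of mitochondria that share its sequence cannot be told apart, and windows of the organelle genomes themselves were not analysed here.

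Outside the block, 5 runs of at least 3 touching windows called higher had a median depth over 5 times the arm median in every library, a rule chosen after the data were seen. UBQ13, a polyubiquitin gene known to carry a piece of mitochondrial DNA in the Columbia strain, had median depths of 6.49, 7.10, 8.38 and 10.5 over 24272501 to 24276500 of chromosome 1 and a median log2 difference of 0.57. The stretch of chromosome 3 from 13536001 to 13542000, over AT3G32990 to AT3G33004, had 18.5, 21.1, 29.9 and 31.1 and a median of 0.75. AT2G07080, a pseudogene, had 20.3, 21.8, 31.6 and 35.3 from 2937501 of chromosome 2, and AT2G07565 and AT2G07600, from 3186001, had 12.8, 14.2, 22.0 and 21.2. On the arm of chromosome 3, AT3G20362 to AT3G20370, from 7103501, had 11.6, 14.3, 18.1 and 17.3. Whether these 5 runs share sequence with the mitochondrial genome was not tested.

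Ribosomal RNA genes were lower in MBD7 input, and all 4 annotated ones were called (2.14% of all genes were called lower). AT2G01010, at the tip of chromosome 2, had relative depths of 55.1 and 58.2 in WT input against 35.3 and 36.3 in MBD7 input. Its log2 difference was -0.63 ± 0.098 (edgeR, Benjamini-Hochberg adjusted p = 1.72e-05). Its counterpart on chromosome 3, AT3G41768, had 56.6, 61.0, 36.4 and 37.7. The shorter genes AT2G01020 and AT3G41979 had 46.7, 49.0, 32.4 and 31.8, and 47.6, 49.9, 33.0 and 32.4, with log2 differences of -0.54 each. The loci of chromosomes 2 and 3 are near-identical in sequence, so their reads cannot be assigned with certainty and their values are not independent. Of the 12 windows over these genes 10 were called lower, but 2 without MBD7 input replicate 1, 6 without MBD7 input replicate 2 and 0 with all 8 libraries.

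Longer runs at the ribosomal genes of chromosome 3 were also called lower. A run of 16 windows from 14191001 to 14199500, which includes AT3G41768, was called lower, with median depths of 92.7 and 95.8 in WT input against 48.6 and 50.6 in MBD7 input and a median log2 difference of -0.92. A run of 8 windows from 14201501 to 14206000 had 72.3, 80.7, 37.5 and 37.6 and a median of -0.93. Within them AT3G00660, an RNA gene, had 493 and 461 in WT input against 198 and 205 in MBD7 input, a log2 difference of -1.20 ± 0.13 (edgeR, Benjamini-Hochberg adjusted p = 3.33e-09). AT3G06365, another, had 188, 179, 82.6 and 86.4 and a difference of -1.08 ± 0.13. Both genes were named by a rule that requires lines that do not overlap. Near the tip of chromosome 2, AT2G00340 had 97.8, 94.6, 47.8 and 52.9, and AT2G01023 had 116, 117, 58.6 and 64.6, with log2 differences of -0.90 and -0.88. These 4 genes passed without each library in turn. With all 8 libraries in the fit, AT2G00340 and AT2G01023 had adjusted p-values of 0.0707 (edgeR, Benjamini-Hochberg).

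The deepest windows of the genome lay in the pericentromeres, where the reference holds a few copies of repeats that are present in great number. The window with the highest mean depth, from 13591001 on chromosome 3, had relative depths of 6884 and 5753 in WT input against 4036 and 4511 in MBD7 input. The 99 windows at over 100 times the arm median among windows that do not overlap, 0.099 Mb in all, took 36.7% and 32.6% of WT input and 26.5% and 28.2% of MBD7 input. Their share was 34.7% ± 2.90 against 27.4% ± 1.19 (SD, n = 2). For windows at over 10 times, outside the block of chromosome 2, the shares were 42.1%, 38.1%, 31.7% and 33.3%. Every MBD7 library was below every WT library in these shares, and an exact permutation test could not go below 0.333. The 95% Wilson half-widths of these shares were at most 0.0298 percentage points, which covers counting error only.

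Of the 203 windows at this depth with overlapping ones included, 27 were called lower (0.665% of all windows were) and 0 higher, and their median log2 difference was -0.52. The WT replicates differed here, and the count was 7 without MBD7 input replicate 1, 8 without MBD7 input replicate 2, 8 without WT input replicate 1 and 92 without WT input replicate 2, while DESeq2's Wald test called 184. Most of the calls, 15, lay among the 71 windows of chromosome 4 from 3950001 to 4011500, with median depths of 189, 164, 120 and 129. The 12 windows of chromosome 3 from 13586501 to 13593500 had 1783, 1500.4, 1044 and 1181, with 2 called. On chromosome 1 the stretch from 15081501 to 15087000 had median depths of 1930, 1492, 1039 and 1165, with 1 of 10 windows called. On chromosome 2 the 32 windows from 3605501 to 3628500 had 1423, 1213, 834 and 911, with 1 called. On chromosome 5 the 47 windows from 11701501 to 11737000 had 917, 720, 511 and 557, with none called. These 3 stretches had median log2 differences of -0.57 to -0.54, and WT replicate 1 was the highest library in each. The 14 windows of chromosome 4 from 3054501 to 3062000 differed less, at 332, 241, 240 and 224, where WT replicate 2 and the MBD7 libraries nearly coincided. The 8 windows of chromosome 3 from 14192501 to 14205000, beside the ribosomal genes, were at 475, 439, 186 and 194, and all 8 were called lower.

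**Figure D3:**
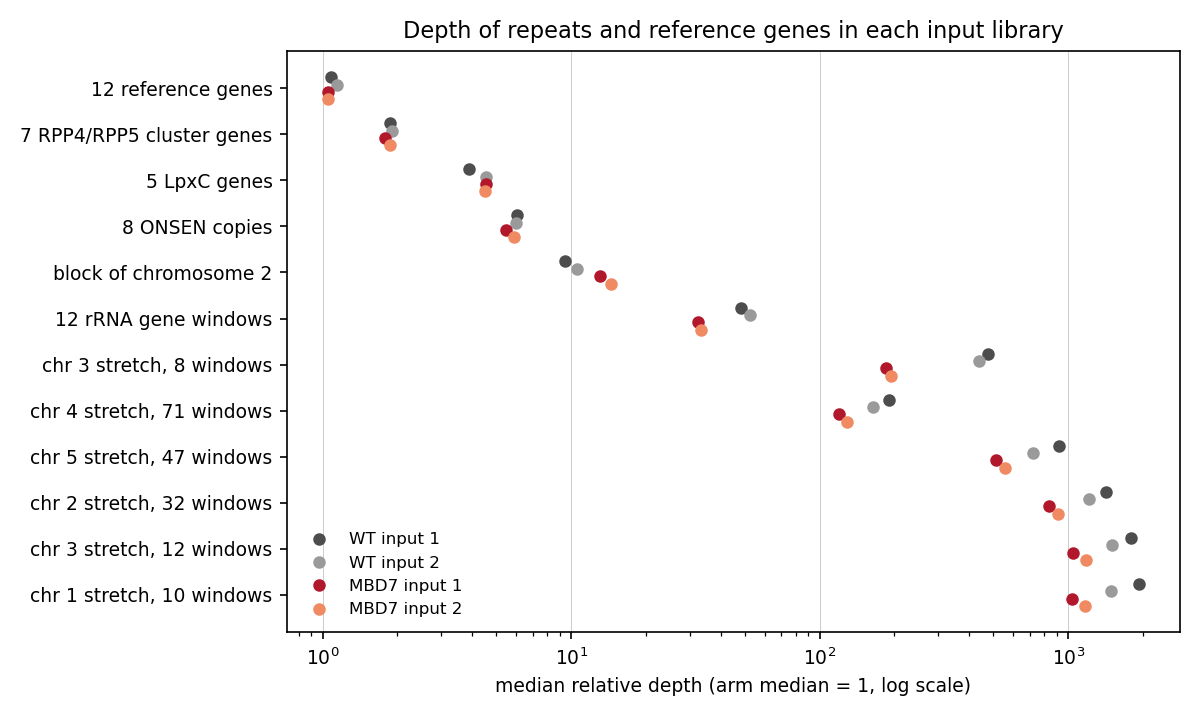
Median relative depth (horizontal axis, log scale, arm median = 1), with 1 point per input library. Rows are reference genes, gene families, the block of chromosome 2, ribosomal RNA gene windows and some stretches at over 100 times the arm median. The stretches of chromosome 4 from 3054501 and of chromosome 5 from 11184501 are not drawn. Reference genes lie near 1 in all 4 libraries, and the block is higher in MBD7 input. The ribosomal windows and the deep stretches drawn are lower, most of all the 8 windows of chromosome 3.

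Gene families and mobile elements with several copies had depths above 1, and none of the members listed here was called (2.98% of all genes were, so 0 of 8 or fewer is near that background). ONSEN, a heat-activated retrotransposon, had mean depths of 5.08 to 6.54 over its 8 listed copies, and 0 of 8 were called. The 5 LpxC genes lie in a repeated segment of chromosome 1. LpxC1 had 3.63, 4.33, 4.46 and 4.47, LpxC2 had 8.92, 9.18, 8.29 and 8.89, and 0 of 5 were called. In relative depth both MBD7 libraries were above both WT libraries in LpxC1 and below both in LpxC2, there by a narrow margin. In the scaled counts of the fit the lines overlapped in LpxC2. Log2 differences were 0.20 for LpxC1, -0.04 for LpxC2, and 0.15, 0.13 and 0.16 for LpxC3, LpxC4 and LpxC5. LpxC1 was called without WT input replicate 2, at a log2 difference of 0.35, and with library size as the only scaling, at 0.30. The 7 genes of the RPP4/RPP5 cluster of disease resistance genes had depths of 1.17 to 2.77, the highest in SNC1, and 0 of 7 were called. The 75 tRNA genes of the array on chromosome 1 had medians of 3.36, 3.23, 2.98 and 3.10, and 0 of 75 were called. AT4G08680 and AT5G17125, of the AtMu1 and EVADE elements, had median depths of 2.29, 2.30, 1.97 and 2.11 between them, and neither was called. For the tRNA array and for this pair, the medians of both MBD7 libraries were below those of both WT libraries.

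Genes for extensins, cell wall proteins built of short repeats, had depths of 7.11 to 46.8 over the 6 listed here, a list drawn after the data were seen. EXT6 had 46.8, 42.7, 45.8 and 31.5, and HRGP1 had 19.5, 16.9, 23.6 and 13.4. In both, the MBD7 replicates lay on either side of a WT library, and the direction of HRGP1 depended on which MBD7 library was used: 0.41 without replicate 2 and -0.40 without replicate 1. EXT6 and EXT10 were at -0.47 and -0.50 without MBD7 input replicate 1. EXT3 had 23.1, 22.2, 17.01 and 17.03 and was called lower, by a log2 difference of -0.38 ± 0.085 (edgeR, Benjamini-Hochberg adjusted p = 0.00483). It no longer passed without WT input replicate 1 or without MBD7 input replicate 1 (-0.35 and -0.38). It was 1 of 6 genes called, against 2.98% of all genes.

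In the arms, 584 stretches were at over 3 times the arm median in every library, 1245 kb in all. Of their 1907 windows 15 were called higher and 33 lower (0.284% and 0.665% of all windows were, and 0.0895% and 0.0766% of arm windows), and their median log2 difference was -0.05. The longest, from 11046501 to 11081000 on chromosome 4, holds AT4G20520 to AT4G20570 among others, in a tandem array of genes for cysteine-rich secreted proteins, and its deepest windows were at 9.14, 9.84, 9.17 and 11. Another ran from 501 to 28000 at the tip of chromosome 2, over ribosomal RNA genes, with its deepest windows at 125, 120, 59.5 and 64.7. The libraries of the lines overlapped in the former and were apart in the latter.

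Short stretches besides MBD7 were also called higher in MBD7 input. AT3G03855, a transcribed pseudogene from 985501 on chromosome 3, had median depths of 0.263, 0.220, 0.635 and 0.795 and a median log2 difference of 1.57 over 2 windows. An intergenic stretch of chromosome 5 from 2071501 had 0.483, 0.430, 1.29 and 1.19 and a median of 1.52. Both stood under the arm median in WT input. Stretches were named here only if the libraries of the lines did not overlap. AT2G12905 on chromosome 2, from 5295501, had 2.58, 3.18, 4.84 and 9.16, and AT2G13145 and AT2G13146, from 5430001, had 2.76, 3.56, 5.03 and 9.41, with medians of 1.31 and 1.18. At both of these loci MBD7 replicate 2 stood far above replicate 1, a wider gap than between the WT replicates. At chromosome 3 from 11225501, chromosome 2 from 14886501 and chromosome 5 from 18311001, which are intergenic, the medians were 1.23, 1.15 and 1.10.

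Places with lower depth in MBD7 input were found by the same rule. PRSL1, in the last windows of chromosome 4 from 18584001, had 1.17, 1.52, 0.444 and 0.432 and a median log2 difference of -1.54. Its best window, from 18585001 to 18585056, was at -2.39. That window is cut short by the end of the chromosome, so its depth is not comparable with that of a full arm window. In the pericentromeres, intergenic DNA of chromosome 5 from 11524501 had 0.644, 0.600, 0.270 and 0.227 and a median of -1.26. AT4G02865 had a median of -1.002, intergenic DNA of chromosome 5 from 11490001 one of -0.97, AT2G07730, a pseudogene, one of -0.91, and AT2G07490 one of -0.90. None of these is absent from the transgenic line. The best windows of AT4G02865, AT2G07730, AT2G07490 and both stretches of chromosome 5 no longer passed without WT input replicate 1 (-0.87, -0.82, -0.98, -1.26 and -0.91) nor without MBD7 input replicate 1 (-1.03, -1.04, -0.92, -1.54 and -1.09). Without MBD7 input replicate 2, AT2G07730, AT2G07490 and both stretches of chromosome 5 did not pass (-0.89, -1.09, -1.16 and -1.08), and without WT input replicate 2 AT2G07490 did not (-1.05). The higher stretches from 14886501 and 18311001 no longer passed without MBD7 input replicate 1 either (1.08 and 0.67), nor the former without WT input replicate 1 or 2 (1.40 and 0.97).

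Among genes named by size of the difference, AT2G06605, AT1G76190 and AT1G08677, in the arms, were higher by 0.85, 0.80 and 0.80 on the log2 scale. They no longer passed without WT input replicate 1, at 0.71, 0.78 and 0.67, nor without MBD7 input replicate 1, at 0.86, 0.62 and 0.51. AT2G06605 and AT1G08677 did not pass without WT input replicate 2, at 0.997 and 0.93, nor AT2G06605 without MBD7 input replicate 2, at 0.84. AT4G06568, a pericentromeric pseudogene, had 0.454, 0.352, 0.216 and 0.141 and was lower by -1.10 ± 0.22 (edgeR, Benjamini-Hochberg adjusted p = 0.000831), and it no longer passed without WT input replicate 1, at -0.91. AT3G33000, inside the stretch of chromosome 3 described above, had 19.6, 25.4, 36.8 and 38.3 and a log2 difference of 0.78 ± 0.091, and it passed without each library in turn. So did AT3G41762, AT3G41761 and AT3G06325, all beside the ribosomal genes of chromosome 3, at -0.96, -0.89 and -0.85. With all 8 libraries in the fit none of these 4 passed, with adjusted p-values of 0.135, 0.0707, 0.119 and 0.0883 (edgeR, Benjamini-Hochberg).

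Called windows were spread unevenly. Touching called windows merged into 175 higher runs and 566 lower runs, and 486 of the lower runs lay in pericentromeres. Of the 663 higher windows, 459 lay in the block of chromosome 2 and 204 elsewhere. The longest higher run, from 3439001 to 3481000, is part of that block, and the longest lower run covered 35 windows of chromosome 1 from 15254001 to 15272000, with median depths of 8.83, 8.50, 5.41 and 5.84. In the arms 152 windows were higher and 130 lower of 169816. In the pericentromeres outside the block 52 were higher and 1422 lower of 62870, and 1042 of the lower ones were intergenic. With the block included, 5.89% of the 17704 intergenic pericentromere windows tested were called lower. The share was 1.38% over pseudogenes and 0.183% over protein-coding genes. Intergenic pericentromere windows had a median log2 difference of -0.14, pericentromere windows over pseudogenes, a class that includes transposable element genes, one of -0.18, and those over protein-coding genes one of 0.01. The medians of the arms and of the pericentromeres outside the block were 0.04 and -0.11, and with library size as the only scaling they were 0.25 and 0.10, so the sign of the latter depends on the scaling and the order of the former above the latter does not.

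Across whole chromosomes the depth of ordinary windows was even. Windows at up to 3 times the arm median placed 25.6% and 25.6% of their counts on chromosome 1 in WT input against 25.8% and 25.8% in MBD7 input. For chromosome 2 the values were 16.0%, 16.0%, 15.9% and 15.9%, and for chromosome 5 they were 22.5%, 22.5%, 22.6% and 22.6%. The mean relative depth of these windows lay between 0.901 and 1.08 in each of the 10 arms and each library. No arm and no chromosome therefore had the depth of an added or missing copy. The ratio of MBD7 input to WT input was 0.950 to 0.988 over the arms and 0.889 to 0.920 over the pericentromeres, so all 5 pericentromeres lay below all 10 arms.

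The pericentromeres held a smaller part of MBD7 input. Their mean depth over that of the arms was 4.62 and 4.18 in WT input against 3.33 and 3.51 in MBD7 input, or 4.40 ± 0.314 against 3.42 ± 0.124 (SD, n = 2), and they took 63.9% and 61.6% of the counts against 56.1% and 57.3%. Without the windows at over 3 times the arm median the ratio was 1.06 and 1.05 in WT input against 0.981 and 0.966 in MBD7 input. The lines did not overlap in either version, the difference being -0.984 with all windows and -0.0832 without the deep ones. Each chromosome had the same order. Without the deep windows the ratio in MBD7 input minus that in WT input was -0.0680 on chromosome 1, -0.104 on chromosome 2, -0.0786 on chromosome 3, -0.0936 on chromosome 4 and -0.0764 on chromosome 5. An exact permutation test gave 0.333 for each, the smallest p that it can give.

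In bins of 100 kb the same pattern followed the chromosomes. Of 1193 bins 245 were called (20.5%), 49 higher (4.11%) and 196 lower (16.4%). In the pericentromeres 183 of 330 bins were lower and 4 higher, with a median log2 difference of -0.11, and in the arms 13 of 863 were lower and 45 higher, with a median of 0.02. With library size as the only scaling, which moves the median of all bins by 0.21, 970 bins were called higher and 16 lower, so directions here are relative to the bulk of the genome. The lowest bins were those from 14100001 and 14200001 on chromosome 3, at -0.73 ± 0.060 and -0.72 ± 0.058, with depths of 18.4, 18.4, 10.7 and 10.9, and of 17.2, 16.3, 9.79 and 9.95. The bin at the tip of chromosome 2 was at -0.49 ± 0.048, with depths of 9.30, 9.54, 6.33 and 6.66. These 3 bins hold ribosomal RNA genes or the DNA beside them. Without windows at over 3 times the arm median they were at -0.23, -0.17 and -0.12, so much of their difference lay in deep windows. The bin from 15300001 on chromosome 1 was at -0.49 ± 0.042, with depths of 5.80, 5.85, 3.89 and 4.17. The bin from 15000001 on chromosome 1, at -0.58 ± 0.16, no longer passed without WT input replicate 1 (-0.41), MBD7 input replicate 1 (-0.50) or MBD7 input replicate 2 (-0.65). It was at -0.24 without windows at over 3 times the arm median.

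The highest bins were set by features already named. The bins from 3200001, 3300001 and 3400001 on chromosome 2, which hold the block, were at 0.43, 0.48 and 0.54. The bin from 24000001 on chromosome 5, which holds MBD7, was at 0.51 ± 0.024, with depths of 1.01, 1.03, 1.42 and 1.39. The bin from 24200001 on chromosome 1, which holds UBQ13, was at 0.14 ± 0.025, and at 0.02 without windows at over 3 times the arm median. Apart from the bin with MBD7, no arm bin exceeded 0.14.

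**Figure D4:**
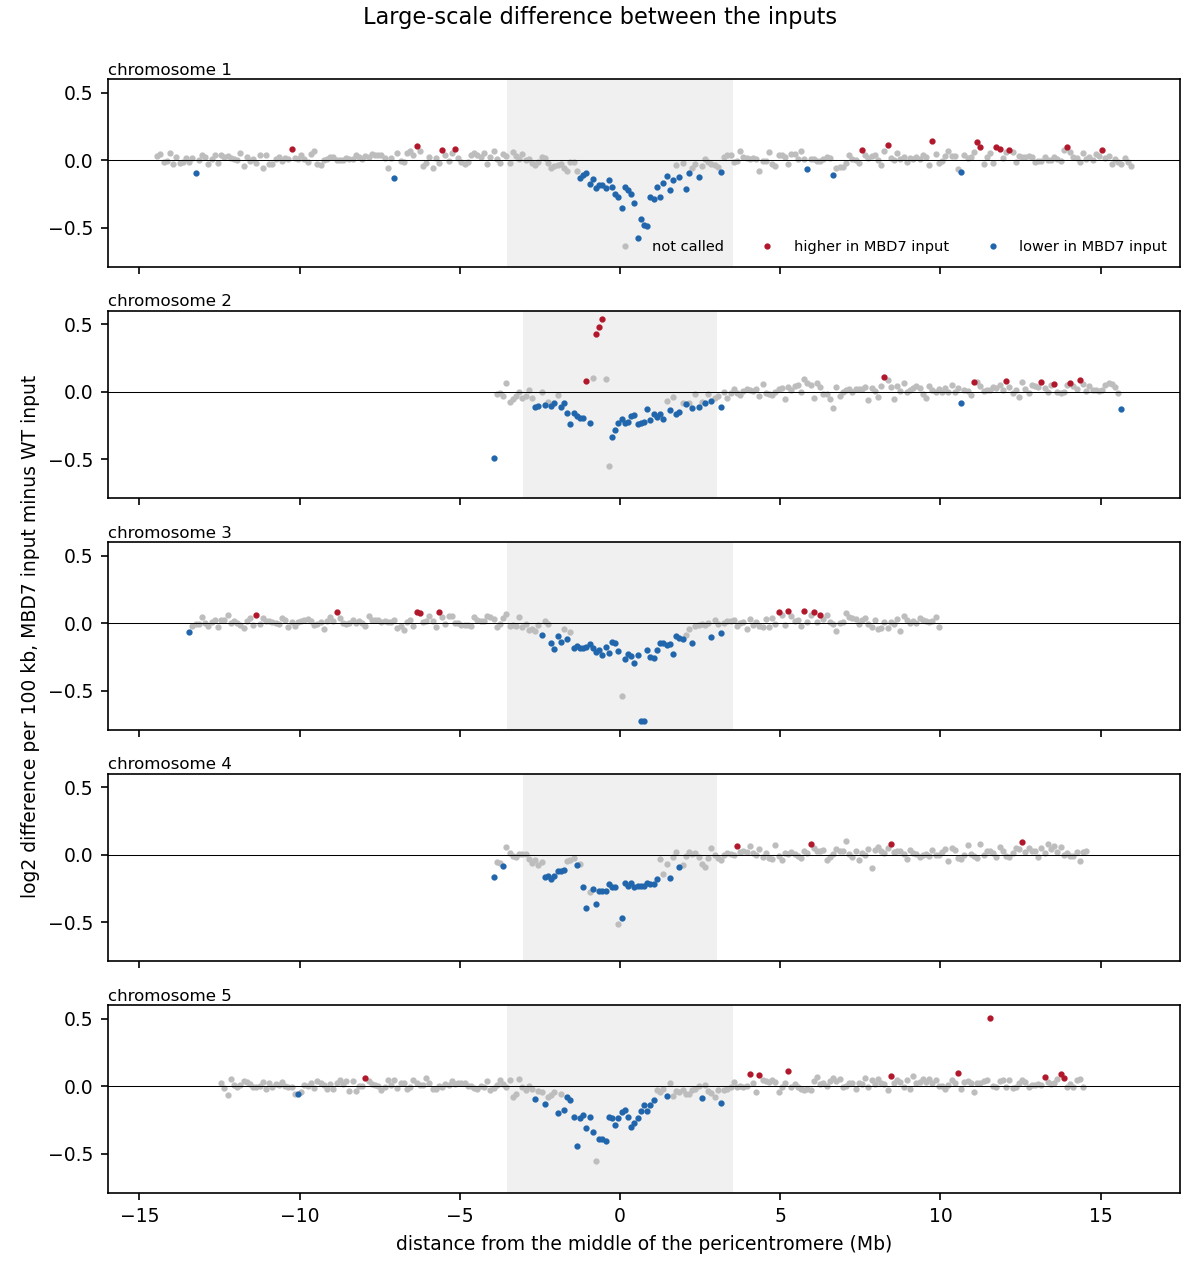
Log2 difference, MBD7 input minus WT input, of bins of 100 kb (points) against the distance from the middle of the pericentromere in Mb, with 1 panel per chromosome and the pericentromere in grey. Red points were called higher and blue points lower, and the 183 lower pericentromere bins form a dip on each chromosome, with the higher bins of the chromosome 2 block and of MBD7 on chromosome 5 above it.

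The ends of the chromosomes were compared over their outermost 5 kb. At the left end of chromosome 2, beside ribosomal RNA genes, 8 of 8 tested windows were called lower, with median depths of 43.2 and 46.96 in WT input against 28.9 and 29.9 in MBD7 input. At the right ends of chromosomes 2, 4 and 5 the numbers called lower were 3 of 10, 3 of 10 and 2 of 9, and at the left end of chromosome 3 there were 2 of 9, against 0.665% of all windows. No window at any of the 10 ends was called higher. The median log2 difference was below 0 at 9 of the ends and 0.07 at the right end of chromosome 3.

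No window was lost or gained outright. No window had 0 counts in both libraries of 1 line and a mean of at least 10 in the other, and 334 windows had 0 counts in all 4 input libraries. There were 8 stretches of at least 4 windows at under 0.1 times the arm median in every library, 173.5 kb in all and each in a pericentromere as bounded here. The longest, of 53 kb, ran from 14751001 to 14804000 on chromosome 1, and the next of 45.5 kb from 14611001 to 14656500. The shortest, of 2.5 kb from 17555001 to 17557500 on chromosome 1, lay over SERPIN1, a gene for a protease inhibitor, and was low in both lines alike.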

How the data were processed

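Chromatin immunoprecipitation and sequencing gave 8 libraries of seedlings, of which the 4 input libraries (WT input and MBD7 input, 2 each) were compared. Groups and replicate numbers came from the sample titles. The submitters' processing notes name Bowtie2, SAMtools, featureCounts and the build TAIR10. It is not given in the sources used here which versions were run, how reads with more than 1 alignment were placed or whether duplicates were taken out. Copies of a repeat may therefore share reads, and PCR duplicates may be among the counts. The deposited table holds raw counts per window of 1000 bp, every 500 bp, for 238296 windows, and has 0 columns of other samples. The authors' counts were used as deposited.

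RefSeq's gene table for TAIR10.1 gave gene names and which windows touch which gene, and its coordinates are not printed. The count of a gene is the sum of the windows touching it, so that neighbours can share counts. Bins of 100 kb summed windows that do not overlap each other. Windows, bins and genes were tested in R 4.3.3 with edgeR 4.0.16 (filterByExpr, TMM scaling, quasi-likelihood test, two-sided, Benjamini-Hochberg adjustment at 0.05) on the 4 input libraries, and DESeq2 1.42.0 was an alternative. Tables and figures used Python 3.11.15, pandas 2.3.3, scipy 1.17.1 and matplotlib 3.10.9. Shares use windows that do not overlap, with 95% Wilson intervals.

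Named windows are touching called windows merged into runs of at least 2, with a mean of at least 10 counts and lines that do not overlap: the 8 highest and 8 lowest by median log2 difference and the longest of each direction. Of bins the 5 highest and 5 lowest called are named, and of genes the 8 highest and 8 lowest called with a mean of at least 50 counts, besides the lists. The members are defined by sample titles, but they and all the lists were chosen with earlier results of these data known.

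The test was checked on simulated counts for MBD7 input against WT input. These were drawn independently for each feature, from the mean profile of the 4 libraries and the fitted spread. Drift shared by many windows of a library was not simulated, so the false calls apply to that setting only. It recovered 15 of 100 windows changed 1.5-fold and 62 of 100 changed 2-fold, with 4 false calls among 233048. Of genes it recovered 80 and 97 of 100 at these folds, with 9 false calls among 37899. Of bins it recovered all 100 changed 1.25-fold, with 3 false calls among 1193.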

Additional observations from a re-analysis of the deposited data

How the results depend on the processing

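The log2 difference of MBD7 stayed between 2.92 and 3.05 and passed in every fit run, with 2.92 to 3.00 when 1 library was left out. That of SUC2 ran from -0.11 to 0.23 without 1 library and passed in no fit. Counts of calls depended on the fit. With all 8 libraries 46 windows, 1 bin and 4 genes were called, against 2215, 245 and 1128. Library size as the only scaling moved the median of all windows by 0.21 and called 5650 windows (94.3% higher), 986 bins (98.4% higher) and 818 genes (84.4% higher), against 29.9%, 20% and 28.1% higher in the fits reported. Scaling by the arm median called 3154 windows (18.7% higher), 236 bins (5.93% higher) and 1596 genes (17.9% higher). DESeq2's Wald test called 1481 windows, 194 bins (4.64% higher) and 716 genes. Windows that do not overlap gave 1056 calls, and a 1.5-fold threshold 14. Without each library in turn 664 to 2193 windows, 166 to 298 bins and 380 to 793 genes were called, and leaving out WT input replicate 1 gave the lowest of each. Genes called numbered 651 without WT input replicate 2 and 670 without MBD7 input replicate 1. Without WT input replicate 1, 498 of the 664 windows called were lower, and 590 were shared with the 2215. Without MBD7 input replicate 1, 607 of 1180 were lower, and 920 were shared.

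The difference in the share of counts in windows at over 10 times the arm median was -6.99 percentage points, and -8.89 to -5.08 without 1 library. For the mitochondrial insertion it was 0.385, 0.333 to 0.437 without 1 library, and 0.704 over the whole block, a span added after seeing the data. The difference in the ratio of pericentromere to arm depth was -0.984, -1.21 to -0.762 without 1 library, and -0.0832 without windows at over 3 times the arm median. HRGP1 ran from -0.40 to 0.41 when 1 library was left out, on either side of 0. The bin of chromosome 2 from 3200001 was at -0.256 without windows at over 3 times the arm median, which removes the windows of the block from it. Of 48 called features named in the text, 48 passed with DESeq2's size factors, 48 without the low-count filter, 48 with arm median scaling, 44 with library size alone, 30 with the Wald test and 13 with all 8 libraries. Without WT input replicate 1 or 2, 36 and 44 passed, and without MBD7 input replicate 1 or 2, 36 and 42. The causes of these differences between fits were not tested.

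Same-numbered libraries of the lines did not deviate together (r = 0.021 over windows, which are not independent), so the numbers were not taken as pairs. With the replicate block 3197 windows, 290 bins and 1651 genes were called, MBD7 was at 2.95 and SUC2 at 0.0587, and all 48 named features passed. At medians of 44 to 63 counts per arm window and 2 libraries a line, 15 of 100 simulated 1.5-fold changes of windows were called. Depth and the number of libraries were not varied separately.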
